A study of Lytechinus variegatus with 8 samples.

Results

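Laccase-2-like LOC121430240 and L-ascorbate oxidase-like LOC121430027 are 2 genes named as multicopper oxidases that lie close together on chromosome 16 of the sea urchin Lytechinus variegatus. They were picked by name from the 26814 genes of the count table, with their difference between secondary and primary spines already known, so their levels in these spines are given as a description and carry no test. A further 9 genes whose description names a laccase, ascorbate oxidase, hephaestin or ceruloplasmin were taken by name as context. None of the 9 is named ceruloplasmin. The libraries came from wild-type, wild-caught animals of the white-and-green color morph: 4 libraries of secondary spines with 100 spines each and 4 libraries of primary spines with 50 spines each, drawn from the same 4 animals and numbered 1 to 4 in both kinds. Messenger RNA of harvested spines was sequenced, so a lower level may come from fewer cells of a type or from less RNA per cell, and these cannot be told apart. Secondary libraries held 9252184 to 10738336 counted reads and primary libraries 9623336 to 10902546.

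Multicopper oxidases carry copper ions that take electrons from a substrate and pass them to oxygen, which becomes water. Laccases of fungi, plants and insects oxidise phenols, and insect laccase-2 takes part in hardening and coloring the cuticle. Ascorbate oxidase is known from plants and fungi, where it oxidises vitamin C. Hephaestin and ceruloplasmin are vertebrate members of the family that oxidise iron so that it can be loaded onto its carrier. What the sea urchin genes do is not given by their names. These are product names and database matches of the deposited table, and the closest Swiss-Prot entry of LOC121430240 is a laccase-2 of the fungus Trametes versicolor, while that of LOC121430027 is a laccase-1 of the fungus Cryptococcus neoformans rather than an ascorbate oxidase.

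Both genes lie on the minus strand of chromosome 16 in assembly Lvar_3.0. LOC121430240 runs from 13841921 to 13882237 and has a counted length of 1482 bases. LOC121430027 runs from 13932378 to 13957598, has a counted length of 935 bases, and is upstream of LOC121430240 in the direction of transcription. The gap between them is 50140 bases. The deposited table gives them complementary domains. LOC121430027 has the family PF07732, which is the amino-terminal domain of laccases, and LOC121430240 has PF00394 and PF07731, which are the middle and carboxy-terminal domains. All 7 of the other genes named laccase or ascorbate oxidase carry these 3 domains in 1 model. The counted lengths of the pair add up to 2417 bases, and the 7 complete models have lengths of 2031 to 2970 bases with a median of 2471. Counts per gene cannot tell apart 2 neighbouring genes and 1 gene recorded as 2 models, so the pair should not be read as 2 independent measurements.

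In secondary spines LOC121430240 had 10.8, 16.9, 7.95 and 32.4 CPM (read counts scaled to library size, with TMM factors) in libraries 1 to 4, against 47.4, 73.9, 53.8 and 113.0 CPM in primary spines. Every secondary library was below every primary library, although secondary library 4 came closest. The mean was 17.0 ± 10.9 CPM in secondary and 72.0 ± 29.6 CPM in primary spines (SD, n = 4 each). The log2 fold change, secondary minus primary, was -2.08 ± 0.47 (standard error) with group as the only term and -2.19 ± 0.16 with the replicate number as a block, which compares spines within an animal.

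LOC121430027 had 4.95, 10.4, 4.27 and 12.04 CPM in secondary libraries 1 to 4, against 16.5, 27.3, 22.2 and 48.8 CPM in primary libraries. Here too the groups did not overlap, and secondary library 4 and primary library 1 were the nearest to each other. The mean was 7.91 ± 3.88 CPM in secondary and 28.7 ± 14.1 CPM in primary spines (SD, n = 4 each), with a log2 fold change of -1.86 ± 0.45 and, with the block, -1.87 ± 0.17. Groups without overlap and with lower secondary values were seen for 5.69% of the 16788 genes tested. Lower values in secondary spines than in primary spines of the same number were seen for 24.1% of genes in all 4 animals. Nothing is read from these shares for the pair, because the same contrast chose it. The median log2 fold change of all tested genes was -0.03, and it was 0.14 when libraries were scaled by size alone, which gave -1.92 and -1.70 for LOC121430240 and LOC121430027.

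**Figure D1:**
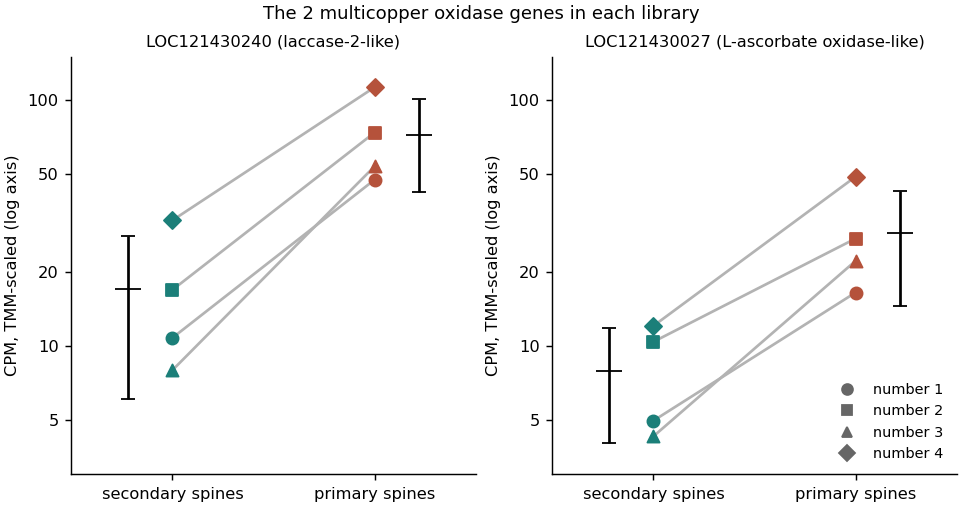
Level of LOC121430240 (left) and LOC121430027 (right) in secondary and primary spines, in TMM-scaled CPM on a log axis; each symbol is 1 library, grey lines join libraries of the same number, and black bars are mean ± SD (n = 4). On all 8 lines the secondary library is the lower one, and number 4 is the highest in both kinds of spine for both genes.

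The difference between the spine kinds was present within each animal. For LOC121430240 the difference in log2 CPM, secondary minus primary, was -2.12, -2.12, -2.73 and -1.80 in animals 1 to 4. For LOC121430027 it was -1.70, -1.38, -2.32 and -2.002. Animal 3 had the widest difference for both genes. Animals also differed from each other: the highest library exceeded the lowest 4.08-fold in secondary and 2.38-fold in primary spines for LOC121430240, and 2.82-fold and 2.97-fold for LOC121430027. Animal 4 was highest and animal 2 came next in both kinds of spine and for both genes, while animal 3 was lowest in secondary and animal 1 lowest in primary spines.

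Both genes put the 8 libraries in the same order. Their log2 CPM had a Pearson r of 0.983 and a Spearman rho of 1.0 over the 8 libraries, a description without a p-value, since libraries share animals and the spine kinds themselves spread the points. After each library's deviation from the mean of its own spine kind was taken, which removes the difference that chose the pair, r was 0.944 and rho 0.976. Without both libraries of 1 animal this r was 0.925 to 0.969. Such an r is not particular to the pair: 162 of 16787 other tested genes, 0.965%, had an r above 0.9 with LOC121430240 in these deviations, and LOC121430027 ranked 44 among them. Over the undivided libraries LOC121430027 ranked 2 of 16787 for likeness to LOC121430240.

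Per length, LOC121430027 was the lower of the pair in every library. The ratio of its reads per base to those of LOC121430240 was 0.728, 0.974, 0.852 and 0.588 in secondary libraries 1 to 4 and 0.550, 0.586, 0.653 and 0.685 in primary libraries. The ratio averaged 0.786 ± 0.165 in secondary and 0.618 ± 0.061 in primary spines (SD, n = 4 each), and the groups overlapped because secondary library 4 lay among the primary values. These ratios rest on few reads in secondary spines, 123 to 506 for the pair together, against 594 to 1515 in primary spines. The 95% exact binomial intervals, which cover counting error only, ran from 0.753 to 1.25 in secondary library 2 and from 0.612 to 0.765 in primary library 4. An equal level per length lay inside the interval of secondary libraries 1, 2 and 3 and outside that of secondary library 4 and of the 4 primary libraries.

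**Figure D2:**
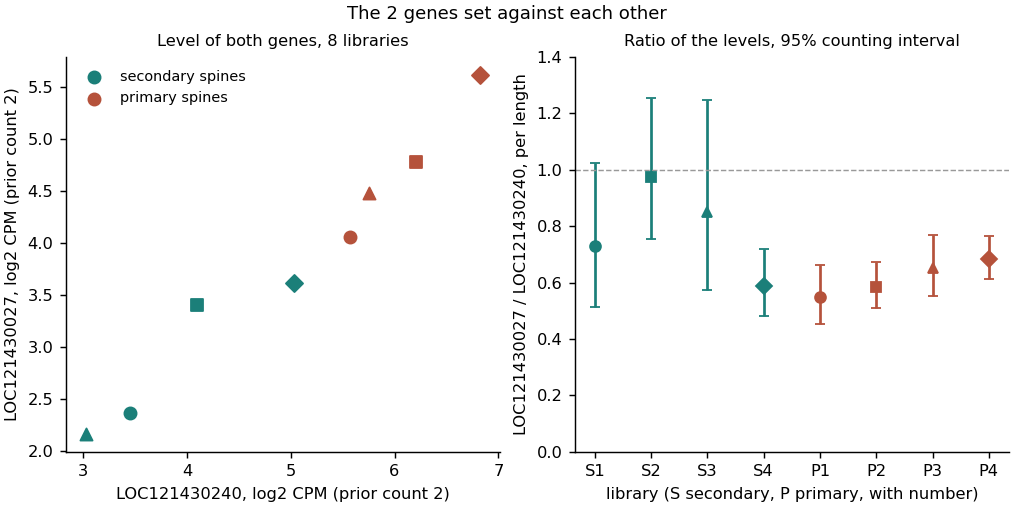
Left, log2 CPM of LOC121430027 against LOC121430240 in 8 libraries, with circle, square, triangle and diamond for replicate numbers 1 to 4. Right, the ratio of their levels per length in secondary (S) and primary (P) libraries with 95% exact binomial intervals and a dashed line at equal levels; all 8 ratios are below the line, from 0.550 to 0.974.

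The nearest genes on one side of the pair were almost without reads in spines, and those tested on the other side had means within their spread in both spine kinds. The table places 1 gene between them, the uncharacterized LOC121430057 on the plus strand (13881790 to 13883948), which overlaps the upstream end of LOC121430240 by 448 bases. The sources used here do not state whether reads were counted by strand, so reads of the overlap cannot be assigned with certainty. LOC121430057 had 7, 11, 14 and 50 reads in secondary libraries 1 to 4, against 1, 3, 7 and 28 reads in primary libraries. In each animal it had more reads in secondary spines, the direction opposite to that of LOC121430240, but it did not pass the test (log2 fold change 0.87 ± 0.97, edgeR adjusted p = 0.752, and adjusted p = 0.102 with the block). The 5 nearest genes on the downstream side of LOC121430240 had 3 to 26 reads over all 8 libraries together and were too low to test.

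Of the 5 nearest genes beyond LOC121430027, 3 were tested and none was called. Trafficking protein particle complex subunit 14-like LOC121429445, a part of a vesicle tethering complex, had 21.1 ± 13.0 CPM in secondary and 21.1 ± 12.3 CPM in primary spines (difference 0.00 ± 0.48 on the log2 scale, edgeR adjusted p = 1.00). The lysosomal scaffold subunit LAMTOR4 homolog LOC121429426 had 0.02 ± 0.17 (edgeR adjusted p = 0.979). The Golgi tether subunit COG7-like LOC121429423 had -0.00 ± 0.14 (edgeR adjusted p = 0.997). LOC121429445, with 191, 151, 108 and 455 reads in secondary and 141, 151, 140 and 370 in primary libraries, was also highest in animal 4. In deviations from the mean of each spine kind, over 8 libraries, its r with LOC121430240 was 0.883, and that of LOC121430057 was 0.738. None of these 4 tested neighbours was called, and the difference between the pair and its neighbours was not tested.

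**Figure D3:**
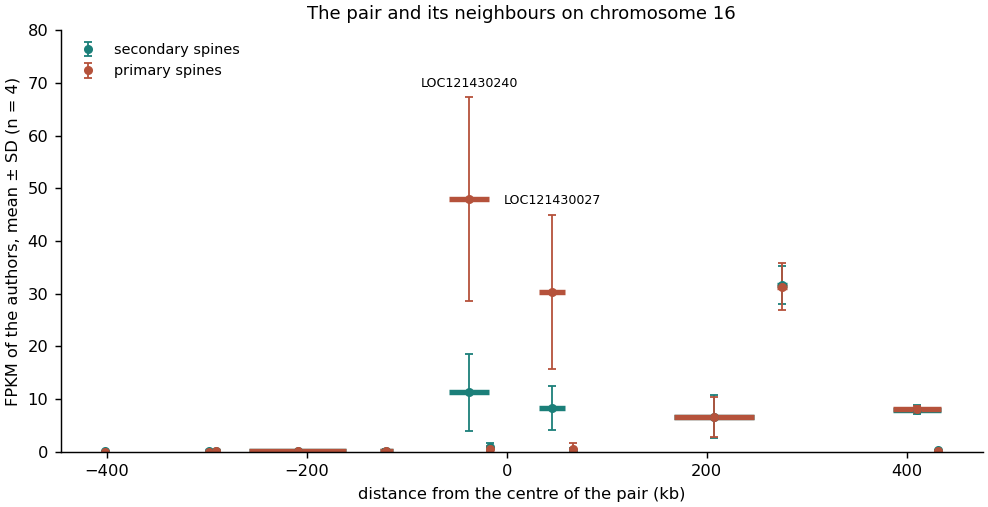
Mean FPKM ± SD (n = 4) of the pair and of 11 neighbouring genes in secondary and primary spines, against distance in kilobases from the centre of the pair; horizontal bars show the extent of each gene. The pair at the centre is higher in primary spines, at 48.0 and 30.3 FPKM, while the genes to its left lie near 0 and the tested genes to its right lie at nearly equal heights in both kinds.

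Within the family both genes were of middle rank in secondary spines, and in primary spines LOC121430240 was near the top while LOC121430027 was still of middle rank. Levels are compared here as FPKM, which are per gene length. In secondary spines LOC121430240 had 11.3 ± 7.30 FPKM and LOC121430027 8.33 ± 4.12 FPKM, ranks 5 and 6 of the 11 genes by mean. In primary spines LOC121430240, at 48.0 ± 19.3 FPKM, had rank 2 and LOC121430027, at 30.3 ± 14.7 FPKM, had rank 5 (SD, n = 4). The order is loose: in secondary spines the ranges of both genes overlapped with those of their neighbours in the order, and in primary spines the step below LOC121430027 was the one step beside the pair without overlap. Together the pair made up 8.81, 6.54, 3.20 and 9.89% of the summed FPKM of the 11 genes in secondary libraries 1 to 4, against 27.0, 19.9, 25.6 and 30.8% in primary libraries. If the pair is 1 gene recorded as 2 models, these shares count that gene more than once and are too high.

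Laccase-1-like LOC121420147 on chromosome 8 had the highest mean FPKM of the family in both kinds of spine. It had 71.8 to 240 FPKM in secondary spines, with a mean of 181.5 ± 75.3, and 59.8 to 204 FPKM in primary spines, with a mean of 130 ± 75.3 (SD, n = 4). The ranges overlapped almost fully. Another laccase-1-like gene, LOC121420754, lies 13051 bases beyond it on the same strand, and the closest Swiss-Prot entries of both are plant L-ascorbate oxidases. It varied mostly between animals, with 28.9, 9.56, 2.88 and 69.8 CPM in secondary libraries 1 to 4, against 11.8, 6.18, 0.316 and 48.7 CPM in primary libraries, the primary value of animal 3 resting on 3 reads. Animal 4 was highest and animal 3 lowest in both kinds of spine.

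The 2 hephaestin-like genes of chromosome 17, both matched to a hephaestin-like protein of a coral, had mean levels of 28.4 FPKM (LOC121430759) and 28.8 FPKM (LOC121430768) in secondary spines, against 41.1 and 30.8 FPKM in primary spines. LOC121430759 had 87.8, 149, 145 and 120 CPM in secondary libraries 1 to 4, against 158, 227, 172 and 164 CPM in primary libraries, so that the groups stood apart by a small gap. LOC121430768 had 51.0 to 219.5 CPM in secondary and 58.5 to 198 CPM in primary spines, and here the groups overlapped fully.

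The remaining laccases had mean levels of at most 7.77 FPKM in secondary and 11.2 FPKM in primary spines. Laccase-4-like LOC121429429, also on chromosome 16, had 17.0 to 23.3 CPM in secondary and 20.3 to 35.0 CPM in primary spines. The gene that shares the product name laccase-2-like, LOC121429992, lies elsewhere on chromosome 16 (17711718 to 17740852) and had 90, 12, 26 and 25 reads in secondary libraries 1 to 4, against 198, 59, 36 and 61 reads in primary libraries. In each animal it too had fewer reads in secondary spines. The laccase-like genes LOC121420037 and LOC121419938 on chromosome 8 were detected mainly in animal 3, with 62 and 25 reads in secondary library 3 and 57 and 23 reads in primary library 3. In the other animals they had 3 to 10 and 0 to 3 reads in secondary, and 4 to 10 and 2 to 7 reads in primary libraries. The other L-ascorbate oxidase-like gene, LOC121429868 on chromosome 16, had 0 reads in all 8 libraries, which allows a level of up to 0.264 to 0.305 CPM in a secondary and 0.299 to 0.323 CPM in a primary library. The sources used here do not say how reads that align to several genes were counted, so levels of genes that share a product name are uncertain.

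**Figure D4:**
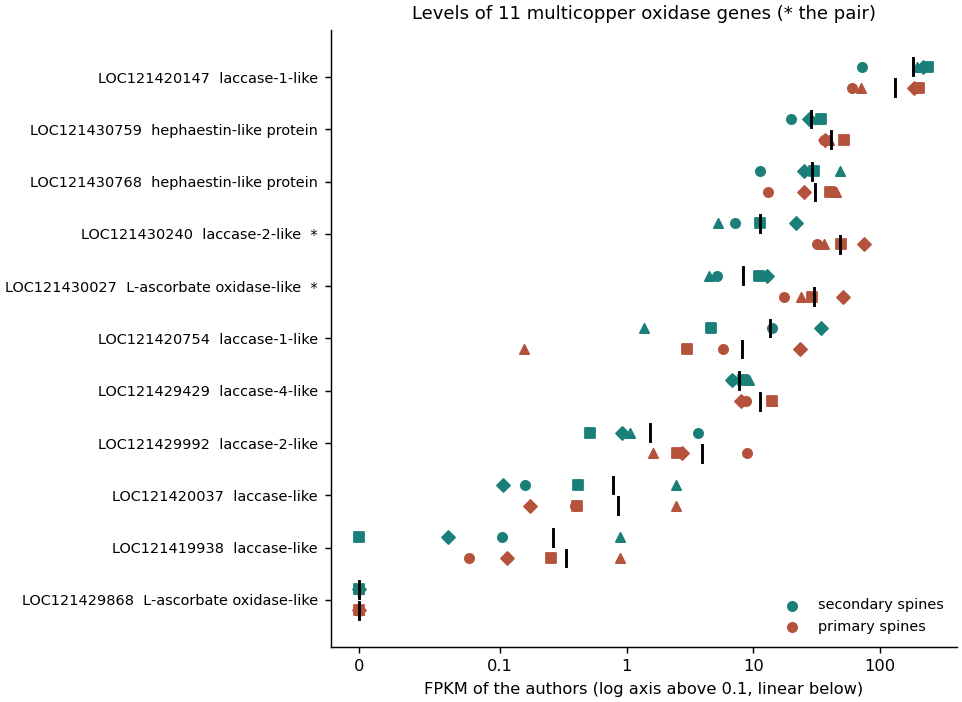
FPKM of the 11 genes in each library, secondary spines above primary spines for each gene, on an axis that is logarithmic above 0.1 and linear below; symbols mark replicate numbers 1 to 4 (circle, square, triangle, diamond), vertical black bars are means of 4 libraries, and asterisks mark the pair. LOC121430240 and LOC121430027 have higher primary than secondary values throughout, whereas the spread of LOC121420754 and of both laccase-like genes lies between animals.

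A question the context genes can answer is whether genes of the same family differed between the spine kinds. Of the 9, 6 had enough reads to test, and 0 were called in either direction by edgeR's quasi-likelihood test, against 7.81% of all 16788 genes tested (5.88% higher and 1.93% lower in secondary spines). DESeq2 also called 0 of them, against 11.2% of its 19238 tested genes (7.46% higher and 3.73% lower). The lowest unadjusted edgeR p, 0.0265 for LOC121430759, was the single one under 0.05. This gene was also the one tested context gene whose groups stood apart, lower in secondary spines (5.69% of all tested genes), and 0 stood apart higher (9.47% of all tested genes). Their median log2 fold change was -0.30. With the replicate block 1 was called higher and 3 lower in secondary spines, against 12.4% and 11.7% of all genes.

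The 3 called lower with the block were LOC121429992, LOC121430759 and LOC121429429. LOC121429992 had a log2 fold change of -1.38 ± 0.27 with the block (edgeR adjusted p = 0.00927), against -1.34 ± 0.74 without it (edgeR adjusted p = 0.394), and the blocked call was lost without animal 1 (edgeR adjusted p = 0.0574). Without primary library 1 its value without the block was -0.54, and without secondary library 1 it was -2.22. LOC121430759 had -0.54 ± 0.11 (edgeR adjusted p = 0.0114 with the block and 0.174 without). LOC121429429 had -0.49 ± 0.12 (edgeR adjusted p = 0.0266 with the block and 0.277 without), and its blocked call was lost without animal 1, 2 or 3 (highest edgeR adjusted p = 0.121). Each of these 3 was lower in secondary spines in all 4 animals, as were 24.1% of tested genes.

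The gene called higher was LOC121420754, at 0.98 ± 0.28 with the block (edgeR adjusted p = 0.0451, and 0.863 without it). This call was lost without animal 1 or 2 (edgeR adjusted p = 0.194 and 0.0859), and the value without the block was -0.28 without secondary library 4 and 2.19 without primary library 4. Like 21.5% of tested genes, it had higher values in secondary spines in all 4 animals. So did LOC121420147, which did not pass at 0.55 ± 0.23 with the block (edgeR adjusted p = 0.136). LOC121430768 did not pass either, at -0.11 ± 0.11 (edgeR adjusted p = 0.482). Between animals, the context genes did not follow the pair closely: in deviations from the mean of each spine kind, over 8 libraries, r of the 6 tested genes ranged from -0.383 to 0.656 with LOC121430240 and from -0.553 to 0.685 with LOC121430027.

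**Figure D5:**
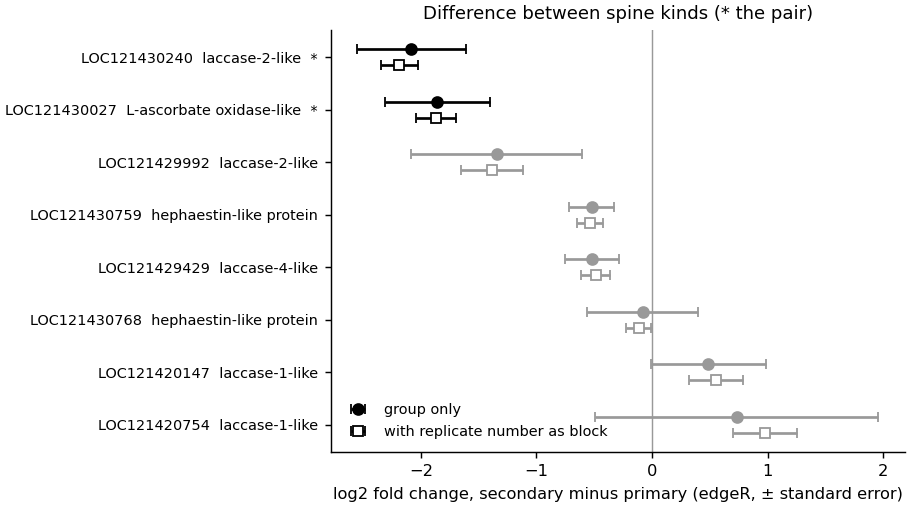
Log2 fold change, secondary minus primary, with its standard error for the 8 genes of the family that had enough reads, with group as the only term (filled circles) and with the replicate number as a block (open squares); asterisks and black mark the pair. The estimates of both fits lie close together for each gene, and the standard errors with the block are the smaller.

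By the likeness of their variation between libraries, other genes stood near the pair. In deviations from the mean of each spine kind, over 8 libraries, the most alike to LOC121430240 were gem-associated protein 5-like LOC121408600 (r = 0.981), serine O-succinyltransferase-like LOC121428871 (r = 0.975), a Hermansky-Pudlak syndrome 3 homolog LOC121427544 (r = 0.973), the Polycomb gene ASXL2 LOC121430526 (r = 0.972) and lysine tRNA ligase-like LOC121426074 (r = 0.971). For LOC121430027 they were histone H4 transcription factor-like LOC121420379 (r = 0.984), polycomb group RING finger 3-like LOC121425297 (r = 0.983), cytochrome P450 2U1-like LOC121415767 (r = 0.983), guanylate kinase-like LOC121424000 (r = 0.982) and the MON2 homolog LOC121411151 (r = 0.979). The lists share no gene, and none of these genes is on chromosome 16. They were taken from 10250 tested genes with an informative name and a mean of at least 5 CPM.

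Among the same 10250 genes, over the undivided 8 libraries, which include the difference between spines, the serine protease aqualysin-1-like LOC121426550 was the most alike to LOC121430027 (r = 0.985) and, after the partner gene, to LOC121430240 (r = 0.977). It had 298 ± 72.6 CPM in secondary and 618.6 ± 142 CPM in primary spines (SD, n = 4 each). Succinate dehydrogenase assembly factor 4-like LOC121415535 (r = 0.976 and 0.964) and tyrosine tRNA ligase-like LOC121413528 (r = 0.975 and 0.976) were among the 5 most alike to both LOC121430240 and LOC121430027. Mucin-5AC-like LOC121431140 completed the list for LOC121430240 (r = 0.962), and the ABC transporter subunit LOC121410513 that for LOC121430027 (r = 0.973). The closest Swiss-Prot entry of LOC121431140 is a human scavenger receptor cysteine-rich protein, M160, rather than a mucin. The points share animals, libraries and depth, and these correlations carry no test.

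Genes that supply or buffer copper did not pass the test with group as the only term, while 3 passed it with the block. Of 10 copper handling genes tested, edgeR called 0 and DESeq2 0, against 7.81% and 11.2% of all genes tested by each. By unadjusted p (threshold 0.05), 2 of the 10 were lower and 0 higher. Metallothionein-A-like LOC121428886, a metal-binding buffer, had 314 ± 65.3 CPM in secondary and 304 ± 61.9 CPM in primary spines. With the block 3 were lower and 0 higher, all 3 of them copper uptake transporters, against 11.7% of all tested genes lower. All 3 calls were lost without animal 1 or 4, and 1 call was made without animal 2 or 3. High affinity copper uptake protein 1-like LOC121429193 had 57.6 ± 11.1 and LOC121429173 of the same name 9.84 ± 2.37 CPM in secondary spines, against 80.8 ± 15.5 and 15.3 ± 4.17 CPM in primary spines (blocked log2 fold changes -0.49 ± 0.12 and -0.63 ± 0.17, edgeR adjusted p = 0.0200 and 0.0326). Low affinity copper uptake protein 2 LOC121428751 had -0.42 ± 0.12 (edgeR adjusted p = 0.0357 with the block). These 3 were named after their values were seen. The median log2 fold change of the 10 genes was -0.19.

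Among 10 tested genes of other copper-dependent enzymes, edgeR called 1 lower and 0 higher in secondary spines (0 higher also by DESeq2 and by unadjusted p), against 1.93% and 5.88% of all tested genes. With the block 4 were lower, against 11.7% of all tested genes, and 2 without any 1 animal. The called gene was Cu-Zn superoxide dismutase LOC121414333, which removes superoxide, at 219.8 ± 19.8 CPM in secondary and 325 ± 36.0 CPM in primary spines (log2 fold change -0.56 ± 0.12, edgeR adjusted p = 0.0231). That call was lost without secondary library 1, 2 or 4 or primary library 1 or 2 (highest edgeR adjusted p = 0.0738) and when libraries were scaled by size alone. The median log2 fold change of the 10 genes was -0.32. The other 3 called with the block, named after their values were seen, were lysyl oxidase homologs LOC121431543 (-0.48 ± 0.10 with the block, edgeR adjusted p = 0.00987) and LOC121432210 (-0.41 ± 0.12, edgeR adjusted p = 0.0409), which cross-link collagen in vertebrates, and dopamine beta-hydroxylase-like LOC121429212 (-1.41 ± 0.38, edgeR adjusted p = 0.0336).

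Haem peroxidases and dual oxidases, which oxidise phenols or make hydrogen peroxide without copper, were called for 0 of 9 tested members by edgeR and 0 by DESeq2. Over all genes tested by each, the shares called were 7.81% and 11.2%. By unadjusted p, 2 of the 9 were lower and 0 higher. The median log2 fold change of the 9 was -0.60. Dual oxidase 1 LOC450217 had 2026 ± 286.5 CPM in secondary and 2511 ± 533 CPM in primary spines, and dual oxidase 2-like LOC121415832 had 1002 ± 262 CPM in secondary and 1328 ± 323 CPM in primary spines. The summed level of all 13 genes of this list, dual oxidase maturation factors included, was 4062 to 4512 CPM in secondary libraries. In primary libraries it was 5091 to 6529 CPM, without overlap. With the block 4 were lower, against 11.7% of all tested genes, and 2 without animal 2, 3 or 4. Named after their values were seen, these were LOC121415832 (-0.41 ± 0.10, edgeR adjusted p = 0.0245), the dual oxidase maturation factors LOC121415834 (-0.62 ± 0.11, edgeR adjusted p = 0.00594) and LOC121415714 (-0.63 ± 0.12, edgeR adjusted p = 0.00836), and the peroxidasin homolog LOC121430779 (-0.68 ± 0.17, edgeR adjusted p = 0.0250).

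Marker genes of cell types, taken by product name, showed what else differed between the spine kinds beside the pair. Of 43 tested genes of ciliated cells, 34 were higher and 0 lower in secondary spines in edgeR, against 5.88% and 1.93% of all tested genes, with 0 lower by DESeq2 and by unadjusted p. With the replicate block 42 were higher and 0 lower, against 12.4% and 11.7% of all tested genes. Axonemal dynein heavy chain 5 LOC121408153, a motor of the beating cilium, had 478 ± 51.6 CPM in secondary and 121.5 ± 24.7 CPM in primary spines (log2 fold change 1.98 ± 0.17, edgeR adjusted p = 0.000929). The summed level of the list was 5049 to 6562 CPM in secondary and 1046 to 1956 CPM in primary libraries, without overlap.

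Genes of skeleton-forming cells, which make the calcite of the spine, were called for 0 of 20 by edgeR and 0 by DESeq2, and 0 with the block, and 1 was higher and 0 lower by unadjusted p. Their sums were 794.8 to 2284 CPM in secondary and 679 to 1813 CPM in primary libraries, and 3 of the 28 in the table, all 30 kDa spicule matrix proteins, had no read. Pigment cell genes, among them polyketide synthases and flavin-containing monooxygenases, were called for 0 of 10 by edgeR, while 1 was higher by DESeq2, by unadjusted p and with the block. The list also caught fatty acid synthase-like LOC121422288, matched to a chicken fatty acid synthase. This was the gene higher by unadjusted p and with the block (edgeR adjusted p = 0.00881 with the block and 0.165 without). It had 64.9 ± 44.9 CPM in secondary and 19.3 ± 15.6 CPM in primary spines. With this gene included, the sums of the list were 141.5 to 236 CPM in secondary and 84.1 to 205 CPM in primary libraries. The sums of the skeleton list and of the pigment list both overlapped between the spine kinds. Over all tested genes edgeR called 7.81% in either direction, DESeq2 11.2% and edgeR with the block 24.1%.

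For the coelomocyte, muscle and neuron lists, the shares of all tested genes called higher and lower were 5.88% and 1.93% in edgeR. They were 12.4% and 11.7% with the block, and 7.46% and 3.73% with DESeq2. Coelomocyte genes, of circulating immune cells, were higher for 1 and lower for 1 of 29 in secondary spines (2 and 4 with the block). Their sums were 2684 to 4680 CPM in secondary and 2997 to 4228 CPM in primary libraries. Macrophage mannose receptor 1-like LOC121429177, a sugar-binding receptor, had 8.52 ± 1.24 CPM in secondary and 2.61 ± 0.579 CPM in primary spines (edgeR adjusted p = 0.00608). Scavenger receptor LOC121405657 had 6.95 ± 1.69 CPM in secondary and 16.9 ± 4.81 CPM in primary spines (edgeR adjusted p = 0.0310, and up to 0.0858 without 1 library). The members without a read were 4 scavenger receptor genes. Muscle-named genes were higher for 2 of 29 and lower for 0 in edgeR (1 by DESeq2, 6 by unadjusted p), and higher for 7 and lower for 7 with the block, with sums of 4461 to 5505 CPM in secondary and 4602 to 5216 CPM in primary libraries. Called higher were paramyosin-like LOC121426309 (31.2 ± 4.78 CPM in secondary and 9.44 ± 3.60 CPM in primary spines, edgeR adjusted p = 0.00788) and troponin T-like LOC121421391. The latter had 19.0 ± 15.8 CPM in secondary and 0.374 ± 0.613 CPM in primary spines (log2 fold change 5.63 ± 1.08, edgeR adjusted p = 0.0147). The list took any gene with muscle in its name, and its median log2 fold change was 0.06. No read came from muscle segmentation homeobox-like LOC121424909 or from the muscle regulator LOC121428440. Neuron-named genes, a list that also caught widely used ELAV-like factors, were higher for 2 and lower for 1 of 30 (5 and 3 with the block). Called higher were synaptotagmin-1-like LOC121410540 (log2 fold change 1.81 ± 0.24, edgeR adjusted p = 0.00318) and CUGBP Elav-like LOC121406326 (1.15 ± 0.16, edgeR adjusted p = 0.00390). Called lower was synaptotagmin-like protein 4 LOC121413911 (-0.83 ± 0.13, edgeR adjusted p = 0.00538), which the list caught by the word synaptotagmin in its name. It had 189 ± 21.6 CPM in secondary and 336.5 ± 35.5 CPM in primary spines, against 87.7 ± 10.3 and 25.0 ± 8.05 CPM for LOC121410540. The median log2 fold change of the neuron list was 0.09. The summed levels of this list did not overlap, at 2213 to 2754 CPM in secondary and 2854 to 3505 CPM in primary libraries. Synaptotagmin-12-like LOC121432111 had no read. The part of any of these cell types in the lower levels of the pair in secondary spines was not tested.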

How the data were processed

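RNA libraries of 4 secondary and 4 primary spine samples were grouped by their titles. The authors deposited whole read counts per gene; per the submitters' processing notes, HISAT2 2.0.5 and featureCounts were used, on assembly 3.0 per the series' design text. The deposited FPKM equal counts divided by gene length and by a library constant of 0.905 to 1.08 times the total count. All 26814 gene positions matched the RefSeq table of Lvar_3.0. No sequences were used.

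Testing used edgeR 4.0.16 in R 4.3.3 (TMM, filterByExpr, robust quasi-likelihood fit, group as the single term) on 16788 genes, two-sided, with Benjamini-Hochberg adjustment and a threshold of 0.05. A standard error is |log2 fold change| over the root of its F statistic. Log2 CPM had a prior count of 2. The fit was tested on simulated data.

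Per the design text, each animal gave spines of both kinds. Library deviations from group means had correlations of 0.733 to 0.811 where numbers matched and of -0.317 to -0.200 where they did not, so a number was taken as an animal, and a fit with the replicate block is given where it changes a call. Libraries of a kind differed far beyond sampling noise (chi-square per gene 35.2 to 57.3), so none is a duplicate.

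Genes and lists were chosen with earlier results of these data known. The text names the pair, the context genes, the 5 nearest genes on each side and any between, the 5 most alike genes, and for each other list called genes (up to 4 were allowed; marker lists are given mainly by counts) or the 2 most abundant. Alternatives were the block, RLE or library-size scaling, no low-count filter, DESeq2 1.42.0, FPKM with a pseudocount of 0.1, a prior count of 0.5, and leaving out each library or animal.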

Additional observations from a re-analysis of the deposited data

Results flagged for a closer look

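In 4 of the 24 sets of 4 libraries examined, the highest library stood apart from the other 3 by more than Dixon's 95% critical value. For independent, normally distributed values chance flags about 1 set in 20. These sets share animals and some rest on few reads, so that rate need not hold here. No value of the pair was among them. Laccase-like LOC121420037 stood out in animal 3 in both kinds of spine, at 6.16 CPM in secondary library 3 and 6.01 CPM in primary library 3, while its other libraries had at most 1.02 CPM in secondary and 1.00 CPM in primary spines. Laccase-like LOC121419938 stood out in the same animal, at 2.48 CPM in secondary library 3. Laccase-2-like LOC121429992 stood out in animal 1, at 21.3 CPM in primary library 1, while the next highest primary library had 6.52 CPM.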

How the results depend on the processing

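Both genes of the pair had a negative log2 fold change, secondary minus primary, in all 19 alternatives run: -2.60 to -1.78 for LOC121430240 and -2.14 to -1.47 for LOC121430027, with each extreme from a fit without 1 library 4. The r of the pair in deviations was 0.925 to 0.969 without 1 animal. The number of genes called over the whole table was 1311. It was 4041 with the replicate block, 2154 with DESeq2 and 4040 with DESeq2 and the block, 876 to 1125 without 1 library, and 2379, 2608, 2864 and 3221 with the block and without animal 1, 2, 3 or 4. Scaling by library size moved the split from 987 higher and 324 lower to 1225 and 168 genes, and the block to 2077 and 1964. Context genes called higher numbered 0, and 1 with either blocked fit (0 to 1 without 1 animal); those called lower numbered 0, and 3 with either blocked fit (1 to 3 without 1 animal). Copper handling genes called lower numbered 0, 3 with the block and 2 with DESeq2 and the block (0 to 1 without 1 animal). Other copper enzymes called lower numbered 1, 4 with the block, 2 with DESeq2 and the block, 0 with library size scaling, 0 to 1 without 1 library, and 2 with the block without any 1 animal. Peroxidases called lower numbered 0, 4 with the block and 5 with DESeq2 and the block, 0 to 1 without 1 library, and 2 to 4 with the block without 1 animal. Marker genes called higher numbered 39, and 62 with DESeq2 and the block (37 to 40 without 1 library). Those called lower numbered 2, 14 with either blocked fit, 5 with DESeq2, 1 with library size scaling, 1 to 3 without 1 library, and 9, 10 or 11 with the block without 1 animal. The sign of LOC121430768, which was not called, turned to 0.065 with library size scaling and ranged from -0.46 to 0.18 without 1 library. LOC121420754 ranged from -0.28 to 2.19 without 1 library. Why calls changed was not tested, beyond the smaller spread that the block leaves: edgeR's common coefficient of variation was 0.183 with it and 0.470 without it. Reads limit the secondary values of LOC121430027, which had 43 to 137 per library.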
